A study of Mus musculus with 21 samples.

Results

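Sall4, Sall1, Lin28a, Lin28b and L1td1 are 5 of the 43438 mouse gene IDs quantified by RNA-seq in 21 libraries from a study of chemical reprogramming, in which small molecules take fibroblasts through a state resembling extraembryonic endoderm (XEN) to pluripotency. The rows were taken by gene name from every library, and each name had 1 row per library. The genes had been proposed as ones that XEN cells and pluripotent cells both express and that are gained before Pou5f1, the master regulator of pluripotency. Since results of these same libraries entered that choice, levels that match it are a description and no support for it. Sall4, Sall1 and Lin28a were above 8 FPKM in every library other than MEF. L1td1 was low in the established XEN line, and Lin28b stayed under 0.4 FPKM in most libraries on the way and in most XEN libraries, which goes against the description. FPKM is the number of sequenced fragments per transcript length and library depth, a level that can be set side by side between genes.

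The starting cells were 2 libraries of mouse embryonic fibroblasts (MEF) taken at E13.5 from the reporter strain C57BL/6J-Tg(GOFGFP)11Imeg/RbrcxICR. Cells on the way carried the same reporter and were sampled at day 12 (1 library), day 16 (2), day 20 (1), day 26 (1) and day 28 (1) of chemical treatment. CeXEN was XEN cells derived from wild-type ICR embryos at E3.5 in stage 1 medium with VC6TFAE and 20 ng/ml bFGF (2 libraries). eXEN was 1 established wild-type ICR XEN line, grown for replicate 1 in stage 1 medium with VC6TF and 20 ng/ml bFGF and for replicate 2 in traditional XEN medium. CiPSC was 7 chemically induced pluripotent lines of the reporter strain, namely 3 C lines (C1 to C3), 2 G lines (G1, G3) and 2 N lines (N4, N6). ESC was embryonic stem cells from E3.5 embryos, from the reporter strain for replicate 1 and from C57BL/6 (B6)N for replicate 2. Strain and medium therefore differ along with cell type where a XEN group is compared with ESC or with day 16, and their parts cannot be told apart. Nothing states that the libraries of MEF, day 16 or CeXEN came from separate cultures. The eXEN libraries differ in medium, the ESC libraries in strain and the CiPSC libraries in line. P-values of group comparisons rest on 1 spread pooled in the fit of all 21 libraries (11 residual degrees of freedom), including the 7 CiPSC lines. That spread mixes line, medium and strain differences with differences that may be technical.

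Sall4 and Sall1 are paralogous zinc finger transcription factors of the spalt family. Sall4 is needed for the inner cell mass and its derivatives and for primitive endoderm lines, and both proteins bind the NuRD chromatin remodelling complex through a short N-terminal motif. Lin28a and Lin28b are paralogous RNA-binding proteins with a cold shock domain and zinc knuckles, which bind precursors of the let-7 microRNAs and block their maturation. Among the genes that mature let-7 lowers are Hmga2, Trim71, Mycn and the Igf2bp genes. L1td1 is an RNA-binding protein derived from the first open reading frame of a LINE-1 retrotransposon, and in human embryonic stem cells it associates with LIN28A.

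The sequences below are mature let-7 microRNAs, whose maturation the Lin28 proteins block. The precursors that the Lin28 proteins bind are not shown, and the capitals do not mark a Lin28 site. Of 10 mature mouse let-7 entries in RefSeq (GRCm38.p6), 9 carried the seed GAGGUAG and let-7j carried GAGGUAU. let-7a, let-7d and let-7g, which share the seed, are shown, 5′ to 3′, with the seed (bases 2 to 8) in capitals.
mmu-let-7a-5p: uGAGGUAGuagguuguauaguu
mmu-let-7d-5p: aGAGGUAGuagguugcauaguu
mmu-let-7g-5p: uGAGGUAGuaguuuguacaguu
The libraries did not measure mature microRNAs. The 9 let-7 hairpins that had a row in the files were listed at 0 in all 21 libraries, so mature let-7 levels were not analysed here.

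The promoters of the Lin28 paralogs and of L1td1 are shown because the levels of these genes were ordered differently across the cell types. Each sequence is the 250 bases before the annotated start (RefSeq, GRCm38.p6), 5′ to 3′ on the gene's strand. Capitals mark matches, on either strand, to GATAA (the core read by GATA factors), ATGCAAAT (the octamer of Pou5f1 and its relatives), CATTGT (a Sox-type motif) or CCAAT (the CCAAT box). Lin28a is chr4:134018817-134019066 on the minus strand, Lin28b is chr10:45470202-45470451 on the minus strand and L1td1 is chr4:98726504-98726753 on the plus strand. Another annotation, GENCODE M21, extends Lin28b upstream to 45486395, and no window before that start is shown. The Lin28a and L1td1 windows reach slightly into the gene spans given below.
Lin28a: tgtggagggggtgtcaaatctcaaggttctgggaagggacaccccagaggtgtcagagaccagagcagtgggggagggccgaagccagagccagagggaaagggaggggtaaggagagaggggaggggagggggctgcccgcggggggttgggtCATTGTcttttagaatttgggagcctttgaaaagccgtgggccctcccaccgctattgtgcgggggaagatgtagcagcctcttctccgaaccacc
Lin28b: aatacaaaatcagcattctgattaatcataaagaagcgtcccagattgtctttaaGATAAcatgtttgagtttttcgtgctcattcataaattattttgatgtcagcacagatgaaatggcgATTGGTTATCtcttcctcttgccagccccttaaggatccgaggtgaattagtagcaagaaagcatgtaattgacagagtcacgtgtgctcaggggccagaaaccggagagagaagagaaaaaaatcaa
L1td1: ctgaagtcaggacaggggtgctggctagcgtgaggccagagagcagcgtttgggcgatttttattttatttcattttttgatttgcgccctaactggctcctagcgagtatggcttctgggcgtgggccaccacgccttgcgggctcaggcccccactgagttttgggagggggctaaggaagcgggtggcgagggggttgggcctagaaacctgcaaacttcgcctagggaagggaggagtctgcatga
The Lin28b window held 2 matches to GATAA and 1 to CCAAT, with a reverse CCAAT and a reverse GATAA lying end to end. The Lin28a window held 1 match to CATTGT, and the L1td1 window held no match. Among all 32851 promoter windows of this length, 22.6% held GATAA, 1.6% held ATGCAAAT, 10.7% held CATTGT and 33.8% held CCAAT, in either orientation. The windows held 7 CpG (Lin28a), 6 CpG (Lin28b) and 11 CpG (L1td1), against a median of 6 over all windows. Their GC content was 61.2% for Lin28a, 39.2% for Lin28b and 57.6% for L1td1. These matches describe letters in a window and say nothing of binding.

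In the files' own coordinates (mm10) Sall4 lies on chromosome 2 at 168748332 to 168767943, Sall1 on chromosome 8 at 89027248 to 89044162, Lin28a on chromosome 4 at 134003330 to 134018841 and Lin28b on chromosome 10 at 45376620 to 45470201, all on the minus strand. L1td1 lies on the plus strand of chromosome 4 at 98726734 to 98738480. Gm14261 overlaps Sall4 and Gm13061 overlaps Lin28a on the opposite strand. Whether counting used strand is not given in the sources used here, so reads of the overlapping pairs may not be told apart. The quantifier gave every member the status OK in every library.

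The labelled cell types carried their markers. The summed FPKM of 10 XEN markers was 3560 to 8322 in eXEN and 5113 to 5671 in CeXEN, against 39.2 to 51.4 in ESC. The summed FPKM of 8 pluripotency markers was 4515 to 5725 in CiPSC and 4792 to 5098 in ESC, against at most 51.9 in the XEN groups. Fibroblast markers stood above all CiPSC libraries at days 12, 16 and 26 but not at days 20 and 28. Their sum was 5.75 to 97.1 in CiPSC and 1.95 to 42.9 in CeXEN. The summed FPKM of 10 fibroblast markers was 3473 to 11205 in MEF, 873 at day 12, 247 to 489 at day 16, 87.1 at day 20, 143 at day 26 and 11.5 at day 28. In bulk samples, fewer cells of a type and less RNA per cell cannot be told apart. Day 12, day 16 replicate 1, day 20 and day 26 came from files in which the quantifier marked some rows LOWDATA, and the other 17 libraries came from files with no such rows. Relative depth ran from 0.401 to 1.57 times that of ESC replicate 1.

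Sall4 was near 0 in fibroblasts and present in every later group. Its level was 0.0353 and 0 FPKM in MEF, 19.7 FPKM at day 12, 38.5 and 23.2 FPKM at day 16, 34.6 FPKM at day 20, 31.5 FPKM at day 26 and 39.6 FPKM at day 28. It was 77.3 and 124 FPKM in CeXEN and 74.9 and 81.9 FPKM in eXEN. In CiPSC it ran from a lowest 64.5 FPKM in line C3 through a median of 114 FPKM to a highest 125 FPKM in line C1, against 98.9 and 145 FPKM in ESC. All libraries on the way lay below all XEN and pluripotent libraries, and the XEN and pluripotent libraries overlapped one another. The order of group means was ESC (122 ± 32.7 FPKM, SD, n = 2), CiPSC (102 ± 21.9, n = 7), CeXEN (101 ± 32.9, n = 2) and eXEN (78.4 ± 4.96, n = 2), and no neighbours in that order differed beyond their spread.

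Sall1 was lowest, after MEF, at day 12 and then in ESC, the group in which Sall4 had its highest mean. Sall1 had 0.149 and 0.214 FPKM in MEF, 8.11 FPKM at day 12, 17.3 and 18.6 FPKM at day 16, 20.6 FPKM at day 20, 12.2 FPKM at day 26 and 29.8 FPKM at day 28. It had 16.5 FPKM in both CeXEN libraries, 20.2 and 22.6 FPKM in eXEN, and 11.7 and 8.18 FPKM in ESC. The 7 CiPSC lines ran from 14.2 FPKM in C1 through a median of 21.5 FPKM to 41.0 FPKM in N6. All CiPSC lines lay above both ESC libraries. The CiPSC range covered both XEN groups and the cells from day 16 on, except day 26, which lay below it.

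Lin28a was highest in XEN cells. It had 0.0189 and 0 FPKM in MEF, 9.41 FPKM at day 12, 24.4 and 70.5 FPKM at day 16, 46.6 FPKM at day 20, 35.0 FPKM at day 26 and 32.4 FPKM at day 28. It had 165 and 166 FPKM in CeXEN and 204 and 221 FPKM in eXEN. The CiPSC lines ran from 66.2 through a median of 80.0 to 113 FPKM, against 46.0 and 59.1 FPKM in ESC. The 4 XEN libraries stood above every other library, and day 16 replicate 2 was 2.89 times day 16 replicate 1.

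Lin28b was low in most libraries and did not follow Lin28a. It had 0.0241 and 0.0130 FPKM in MEF, which the quantifier's bounds put at about 2 and 1 fragments. It had 0.397 FPKM at day 12, 0.394 and 3.20 FPKM at day 16, 0.180 FPKM at day 20, 0.280 FPKM at day 26 and 0.137 FPKM at day 28. In CeXEN it had 0.310 and 0.158 FPKM, and in eXEN 5.27 FPKM in replicate 1 and 0.167 FPKM in replicate 2. The CiPSC lines ran from 2.42 through a median of 3.58 to 5.86 FPKM, against 1.88 and 1.91 FPKM in ESC. Day 16 replicate 2 and eXEN replicate 1 were the only libraries outside ESC and CiPSC above 0.4 FPKM. The eXEN replicates differed 31.6-fold, with about 446 fragments in replicate 1 and 15 fragments in replicate 2, and the day 16 replicates differed 8.12-fold, with about 247 fragments in replicate 2 and 29 in replicate 1. These fragment numbers cover counting error only.

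L1td1 was highest in pluripotent cells and lowest, after MEF, in the established XEN line. It had 0.0795 and 0 FPKM in MEF, 16.9 FPKM at day 12, 37.1 and 42.1 FPKM at day 16, 49.9 FPKM at day 20, 47.5 FPKM at day 26 and 55.5 FPKM at day 28. It had 36.6 and 63.8 FPKM in CeXEN, and 12.3 FPKM in eXEN replicate 1 and 2.73 FPKM in eXEN replicate 2. The CiPSC lines ran from 131 through a median of 199 to 282 FPKM, against 218 and 156 FPKM in ESC. CeXEN overlapped day 16 to day 28, while both eXEN libraries lay below day 12.

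**Figure D1:**
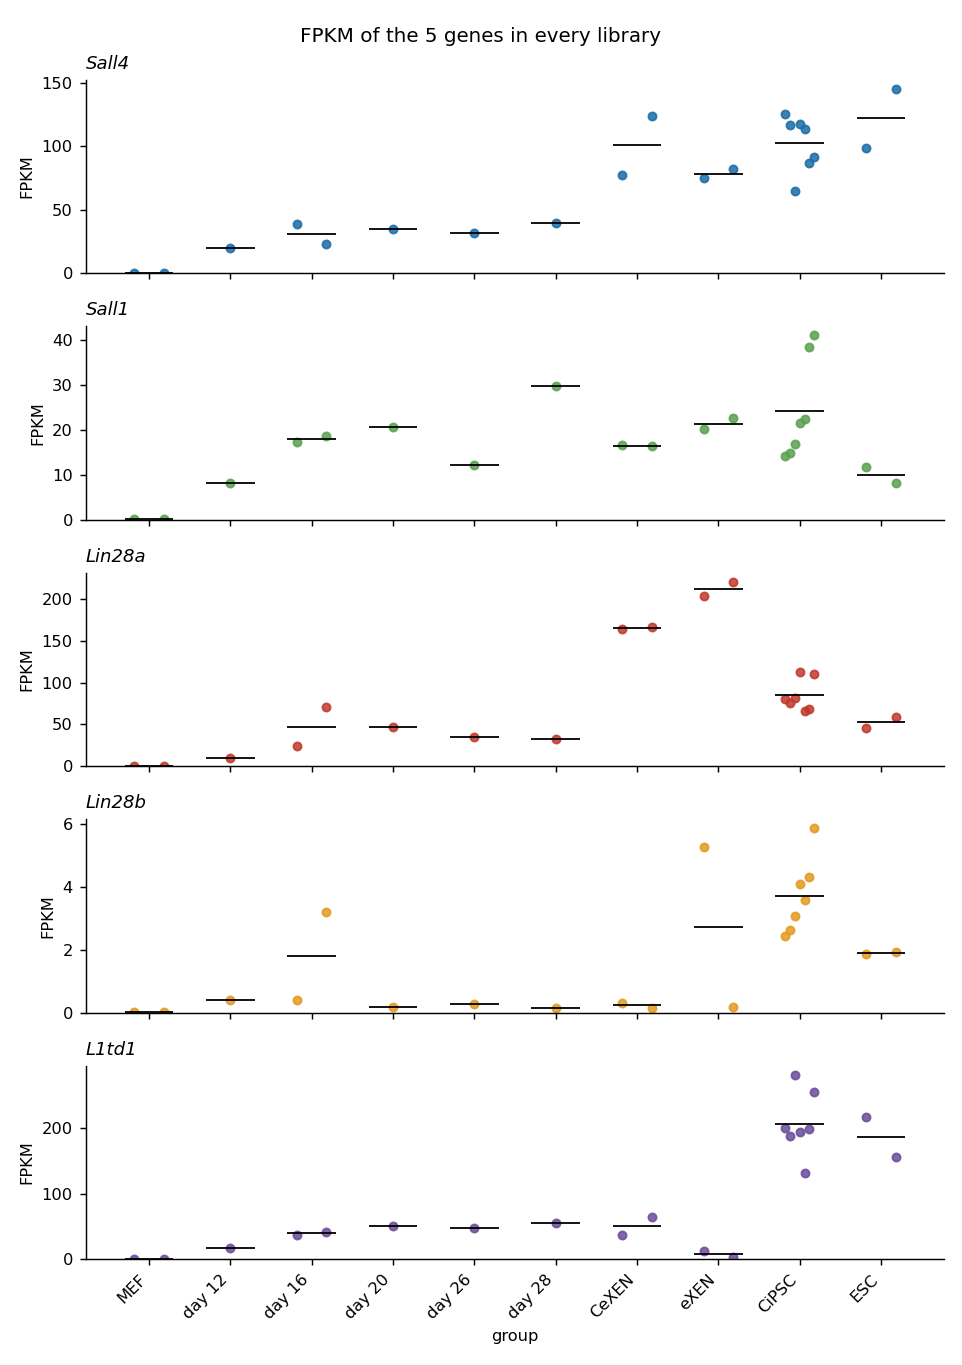
FPKM of the 5 members in each of the 21 libraries (points) by group, on a linear axis that starts at 0 in each panel, with lines for group means. Lin28a is highest in the 4 XEN libraries, L1td1 in CiPSC and ESC, and Lin28b is spread over replicates of day 16 and eXEN.

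The timing of these genes against the core pluripotency factors is a description, since gain before Pou5f1 entered their choice. Differences from MEF are given without a test, because they entered the choice of the genes. On the log2(FPKM + 1) scale, which understates the change of genes near 0, day 16 stood above MEF by 5.40 ± 0.37 for Lin28a (SE, n = 2 against 2), 5.28 ± 0.46 for L1td1, 4.92 ± 0.33 for Sall4, 4.0 ± 0.42 for Sall1 and 1.25 ± 0.61 for Lin28b. The same difference was 0.12 ± 0.28 for Pou5f1, 0.10 ± 0.28 for Nanog and 1.42 ± 0.60 for Sox2, so that Sox2 lay above Lin28b. Pou5f1 had 0.228 and 0.288 FPKM in MEF, 0 FPKM at day 12, 0.521 and 0.236 FPKM at day 16, 0.427 FPKM at day 20, 18.9 FPKM at day 26 and 6.23 FPKM at day 28. Nanog, another core pluripotency factor, stayed between 0.0716 and 2.79 FPKM from day 12 to day 28, and Sox2, the partner of Pou5f1, between 1.69 and 10.6 FPKM, with 0.496 and 1.26 FPKM of Sox2 in MEF. Sall4, Sall1, Lin28a and L1td1 were each above 8 FPKM in the day 12 library, where Pou5f1 was listed at 0. This order was part of the choice and is no support for it. The sum of the pluripotency markers was 28.3 FPKM at day 12, 6.34 to 196 FPKM at day 16, 166 FPKM at day 20, 632 FPKM at day 26 and 345 FPKM at day 28, so markers besides Pou5f1 were present early in some libraries.

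From day 12 to day 28 no member had a slope that passed the test. With 6 libraries and 4 residual degrees of freedom, 0% of the 16650 genes tested were called, the smallest limma adjusted p was 0.175, and 3349 genes had an unadjusted p under 0.05. The fitted change over 16 days was 1.21 ± 0.42 for L1td1 (SE, adjusted p = 0.213), 0.92 ± 0.96 for Lin28a (adjusted p = 0.625), 0.88 ± 0.56 for Sall1 (adjusted p = 0.417), 0.68 ± 0.34 for Sall4 (adjusted p = 0.32) and −0.75 ± 0.72 for Lin28b (adjusted p = 0.586). Without the day 12 library the L1td1 value was 0.53 and the Lin28a value −0.48. Within the 4 libraries from files with LOWDATA rows the values were 1.54 for L1td1, 2.02 for Lin28a, 0.56 for Sall4, 0.51 for Sall1 and −0.19 for Lin28b. Over the same days the fibroblast marker sum was lower in later libraries, and its part in these values was not tested.

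**Figure D2:**
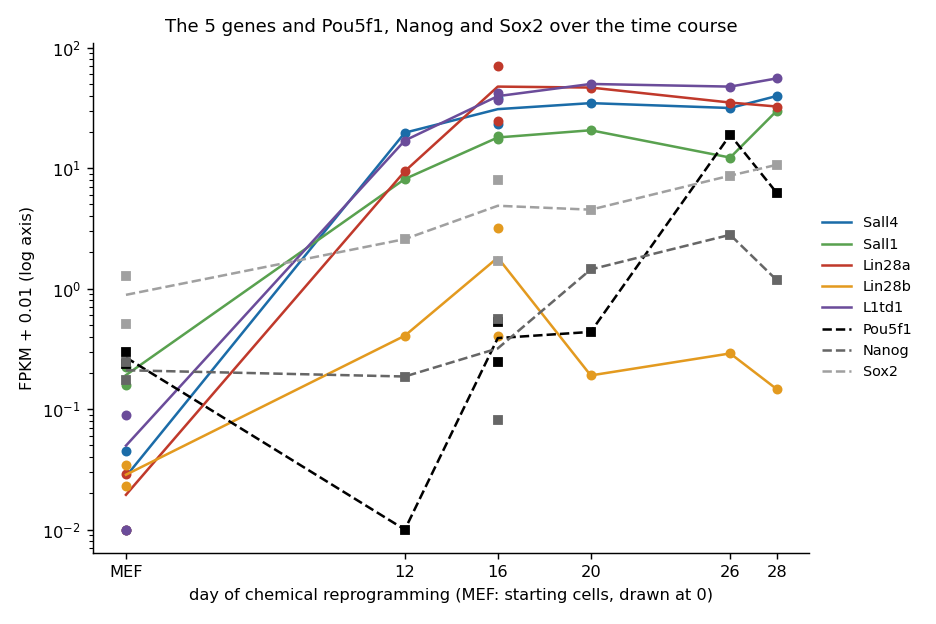
FPKM + 0.01 (log axis) of the members and of Pou5f1, Nanog and Sox2 in MEF and at days 12, 16, 20, 26 and 28 of treatment, with 1 point per library and lines through the group means. Sall4, Sall1, Lin28a and L1td1 lie above 8 FPKM from day 12 on, and Pou5f1 first exceeds 1 FPKM in the day 26 library.

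XEN cells differed from ESC in Lin28a and L1td1, in opposite directions. Lin28a was higher and L1td1 lower in both XEN groups. A gene was called where the limma adjusted p over all tested genes was under 0.05 and the log2 difference at least 1. In eXEN against ESC 2 of 5 members were called, where 28.1% of all genes were (9.78% higher and 18.4% lower). Lin28a averaged 213 ± 11.6 FPKM in eXEN and 52.6 ± 9.24 FPKM in ESC (SD, n = 2 each), a log2 difference of 2.01 ± 0.37 (SE, adjusted p = 0.000754). L1td1 averaged 7.53 ± 6.78 FPKM in eXEN and 187 ± 43.7 FPKM in ESC, a log2 difference of −4.72 ± 0.46 (adjusted p = 3.78e-06). Sall1 was at 21.4 ± 1.70 FPKM in eXEN and 9.94 ± 2.49 FPKM in ESC, and its log2 difference of 1.05 ± 0.42 missed the threshold (adjusted p = 0.0648). With quantile normalization Sall1 was called at 1.19 (adjusted p = 0.0414) and with median-of-ratios scaling at 1.27 (adjusted p = 0.0307). With the replicate number as a block it was called too (adjusted p = 0.0366). The other 9 of 12 alternative settings left Sall1 uncalled, and with single libraries left out its difference ran from 0.81 to 1.28. The median of all genes lay at −0.26 in this comparison, so both differences of Lin28a and Sall1 ran against the general shift and that of L1td1 ran with it.

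CeXEN, which shares its ESC libraries with the previous comparison, gave 2 called members, where 30.3% of all genes were called (12.5% higher and 17.8% lower). Lin28a averaged 166 ± 0.997 FPKM in CeXEN, with a log2 difference from ESC of 1.65 ± 0.37 (adjusted p = 0.00284). L1td1 averaged 50.2 ± 19.2 FPKM in CeXEN, with a log2 difference of −1.91 ± 0.46 (adjusted p = 0.00483). Without CeXEN replicate 1 the L1td1 difference was −1.52 and missed the threshold, in a fit that leaves 1 CeXEN library. For Sall4 the log2 differences were −0.61 ± 0.33 in eXEN (adjusted p = 0.162) and −0.29 ± 0.33 in CeXEN (adjusted p = 0.52). The Lin28b log2 difference of −1.23 ± 0.61 in CeXEN missed the threshold (adjusted p = 0.123), and it was called when only CeXEN and ESC entered the fit (adjusted p = 0.0152). Sall1 differed by 0.70 ± 0.42 in CeXEN (adjusted p = 0.208). In eXEN the Lin28b libraries lay on both sides of ESC, with a log2 difference of −0.10 ± 0.61 (adjusted p = 0.936).

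Between both sources of XEN cells, L1td1 was the single member called, where 6.47% of all genes were (4.01% higher and 2.46% lower). It was higher in CeXEN than in eXEN by 2.81 ± 0.46 on the log2 scale (adjusted p = 0.00187). Both CeXEN libraries lay above both eXEN libraries, but how many of all genes do so was not counted. With the replicate number as a block the adjusted p was 0.0893, and with only these 4 libraries in the fit it was 0.348. The remaining members had log2 differences of 0.32 for Sall4 (adjusted p = 0.685), −0.35 for Sall1 (adjusted p = 0.752), −0.36 for Lin28a (adjusted p = 0.687) and −1.13 for Lin28b (adjusted p = 0.315). The Lin28b difference was −2.35 without eXEN replicate 2, which grew in traditional medium, and 0.08 without eXEN replicate 1. Each of these fits leaves 1 eXEN library, so no conclusion is drawn from them. L1td1 differed by 1.89 without eXEN replicate 2 and by 3.73 without eXEN replicate 1. Sox2, a pluripotency factor that is no member, was also higher in CeXEN, by 2.72 ± 0.60 (adjusted p = 0.0121), with 2.25 and 16.2 FPKM in CeXEN against 0.0268 and 0.255 FPKM in eXEN. Strain was the same in both groups, but derivation and medium differ with the group, and their parts cannot be told apart.

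**Figure D3:**
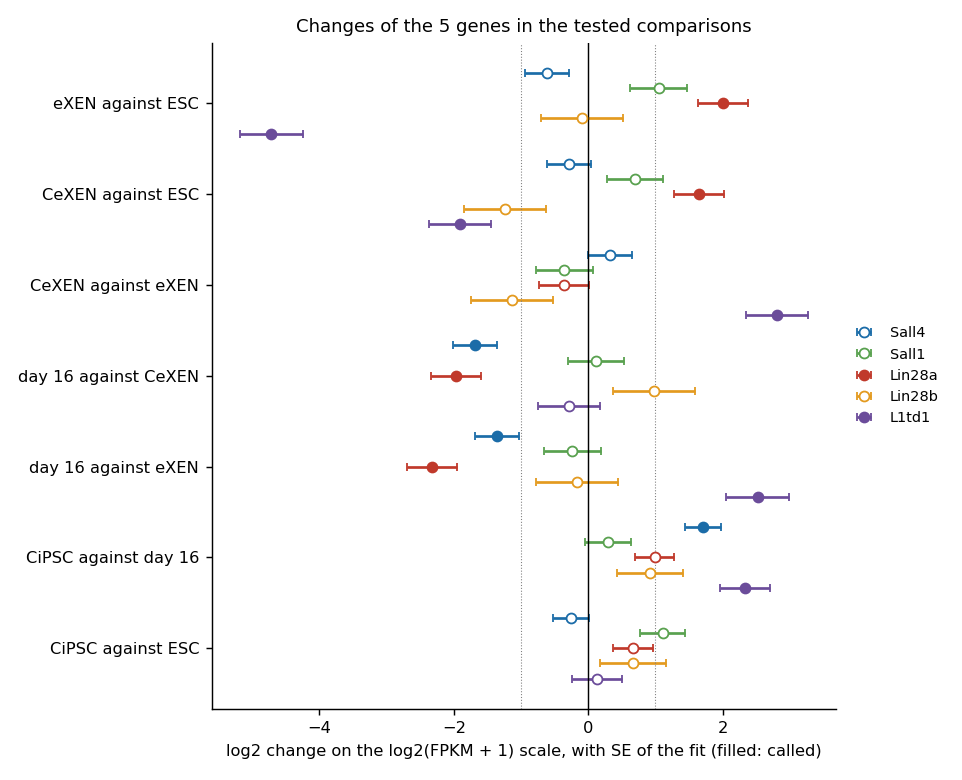
Log2 difference with its standard error for the 5 members in each of the 7 tested comparisons. Filled points passed adjusted p under 0.05 and a log2 difference of at least 1. L1td1 runs from −4.72 in eXEN against ESC to 2.81 in CeXEN against eXEN.

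Day 16 cells had less Sall4 and Lin28a than either XEN group, while Sall1 showed no difference that passed the test. Against CeXEN, 2 of 5 members were called, where 11.3% of all genes were (9.11% higher and 2.18% lower). Sall4 averaged 30.8 ± 10.9 FPKM at day 16 (SD, n = 2), lower than in CeXEN by a log2 difference of −1.68 ± 0.33 (adjusted p = 0.00341). Lin28a averaged 47.5 ± 32.6 FPKM at day 16, with a log2 difference of −1.97 ± 0.37 (adjusted p = 0.00257). L1td1 averaged 39.6 ± 3.52 FPKM at day 16, with a log2 difference of −0.29 (adjusted p = 0.767). Sall1 differed by 0.12 (adjusted p = 0.923) and Lin28b by 0.97 (adjusted p = 0.331). With the replicate block Sall4 missed the threshold (adjusted p = 0.0573), and with only the 4 libraries in the fit Sall4 (adjusted p = 0.185) and Lin28a (adjusted p = 0.24) both did. Day 16 replicate 2 comes from the same kind of file as CeXEN, and with it alone the differences were −2.03 for Sall4 and −1.22 for Lin28a. A fit with 1 day 16 library measures no spread of day 16 cells. The fibroblast marker sum of 247 to 489 FPKM at day 16, against 1.95 to 42.9 FPKM in CeXEN, and the XEN marker sum of 3181 to 3369 FPKM, against 5113 to 5671 FPKM, moved with these differences, and their part was not tested.

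Against eXEN, which shares the day 16 libraries, 3 of 5 members were called, where 17.1% of all genes were (14% higher and 3.17% lower). Lin28a was lower at day 16 by a log2 difference of −2.32 ± 0.37 (adjusted p = 0.000423) and L1td1 was higher by 2.52 ± 0.46 (adjusted p = 0.00131). Sall4 was lower, with a log2 difference of −1.36 ± 0.33 (adjusted p = 0.00821). The Sall4 call was lost with the replicate block (adjusted p = 0.0642). It was also lost without day 16 replicate 2 and without eXEN replicate 2, in fits that leave 1 library in a group. With only the 4 libraries in the fit the calls of Lin28a (adjusted p = 0.141), L1td1 (adjusted p = 0.165) and Sall4 (adjusted p = 0.123) were all lost. With day 16 replicate 2 alone, within files of the same kind, the values were −1.58 for Lin28a, 2.61 for L1td1 and −1.71 for Sall4. Here too no spread of day 16 cells was measured. Sall1 differed by −0.24 (adjusted p = 0.76) and Lin28b by −0.16 (adjusted p = 0.917).

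CiPSC lines stood above day 16 cells in Sall4 and L1td1. These were 2 of 5 members called, where 29.9% of all genes were (13% higher and 17% lower). Sall4 was higher by 1.71 ± 0.26 on the log2 scale (adjusted p = 0.00011, n = 7 against 2) and L1td1 by 2.33 ± 0.37 (adjusted p = 0.000155). The fibroblast marker sum was 247 to 489 FPKM at day 16, against 5.75 to 97.1 FPKM in CiPSC. Its part in these differences was not tested. All 7 lines exceeded both day 16 libraries for both genes, but the share of all genes that separate so was not counted. Lin28a averaged 85.2 ± 18.9 FPKM in CiPSC, and its log2 difference of 0.99 ± 0.30 (adjusted p = 0.0131) fell just short of the minimum size for a call. It reached that size with median-of-ratios scaling, at 1.02 (adjusted p = 0.00954). Without day 16 replicate 2 the Lin28a difference was 1.73, and without replicate 1 it was 0.24. Lin28b behaved alike, at 0.92 ± 0.49 (adjusted p = 0.135) with both replicates, 1.72 without replicate 2 and 0.13 without replicate 1. Sall1 differed by 0.30 ± 0.34 (adjusted p = 0.492). Pou5f1 differed by 9.33 ± 0.22 in the same comparison, and no p is given because its late gain entered the choice of the genes. Without day 16 replicate 1, within files of the same kind, the differences were 2.07 for Sall4 and 2.24 for L1td1, from 1 day 16 library.

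The CiPSC libraries were also set against ESC, with the same CiPSC values as in the previous comparison. No member was called, where 0.0601% of all genes (10) were called (0.036% higher and 0.024% lower) and 1412 had an unadjusted p under 0.05. Sall4 differed by −0.26 ± 0.26 on the log2 scale (adjusted p = 0.857) and L1td1 by 0.13 ± 0.37 (adjusted p = 0.984). Sall1 averaged 24.1 ± 11.1 FPKM in CiPSC (SD, n = 7) and 9.94 ± 2.49 FPKM in ESC (n = 2), a difference of 1.11 ± 0.34 (adjusted p = 0.375). Lin28a differed by 0.67 ± 0.30 (adjusted p = 0.57) and Lin28b by 0.66 ± 0.49 (adjusted p = 0.759). For Sall1, Lin28a and Lin28b all 7 CiPSC lines lay above both ESC libraries, though none of these genes was called. The share of all genes that lie so was not counted, so no conclusion is drawn from it.

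The CiPSC lines varied by the letter in their names, whose meaning the labels do not give. This description was chosen after the values were seen, and no test was made. The share of all genes ordered by letter was not counted, so the order is not shown to be particular to these genes. Sall1 had 14.2, 14.8 and 16.8 FPKM in C1, C2 and C3, 21.5 and 22.3 FPKM in G1 and G3, and 38.3 and 41.0 FPKM in N4 and N6, with no overlap between letters. Lin28b was ordered the same way, with 2.42, 2.63 and 3.07 FPKM in the C lines, 4.08 and 3.58 FPKM in the G lines, and 4.30 and 5.86 FPKM in the N lines. Sall4 had 125, 117 and 64.5 FPKM in the C lines, 118 and 114 FPKM in the G lines, and 87.2 and 91.5 FPKM in the N lines, so that letters overlapped. Lin28a had 80.0, 76.0 and 81.9 FPKM in the C lines, 113 and 66.2 FPKM in the G lines, and 69.0 and 110 FPKM in the N lines. L1td1 had 201, 189 and 282 FPKM in the C lines, 194 and 131 FPKM in the G lines, and 199 and 256 FPKM in the N lines. C3 was the shallowest library and N4 the deepest.

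**Figure D4:**
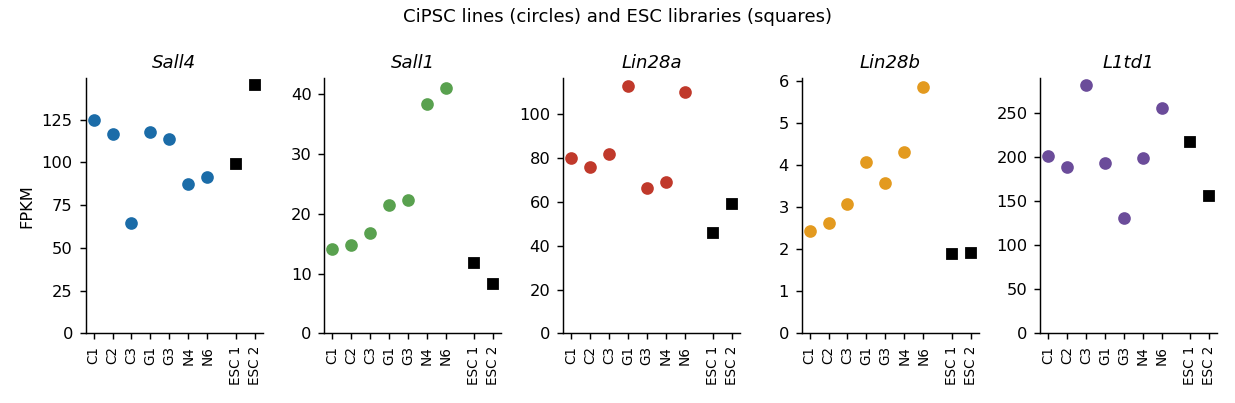
FPKM of the 5 members in the 7 CiPSC lines, by line letter, with the 2 ESC libraries beside them. Sall1 and Lin28b step up from C to G to N lines, while Sall4, Lin28a and L1td1 overlap between letters.

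The balance between paralogs was described per library, with no test. Lin28a exceeded Lin28b in FPKM in every library after MEF. The Lin28a over Lin28b ratio was 532 and 1052 in CeXEN and 38.8 and 1325 in eXEN. It was 23.7 at day 12, 61.9 and 22.0 at day 16, 258 at day 20, 125 at day 26 and 237 at day 28. In CiPSC it was 16.0 to 33.0, against 24.5 and 30.9 in ESC, and the day 12 library and day 16 replicate 2 lay within the CiPSC range. Ratios in libraries with few Lin28b fragments are imprecise, as with the 15 fragments of eXEN replicate 2. The Sall4 over Sall1 ratio was 4.68 and 7.53 in CeXEN, 3.63 to 3.71 in eXEN, 1.25 to 2.23 at day 16 and 2.23 to 8.83 in CiPSC, against 8.45 and 17.7 in ESC. The CiPSC range covered both XEN groups and ESC replicate 1. ESC replicate 2 thus had the highest Sall4 share of the Sall4 and Sall1 pair among these libraries, and day 16 replicate 2 the lowest after MEF.

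**Figure D5:**
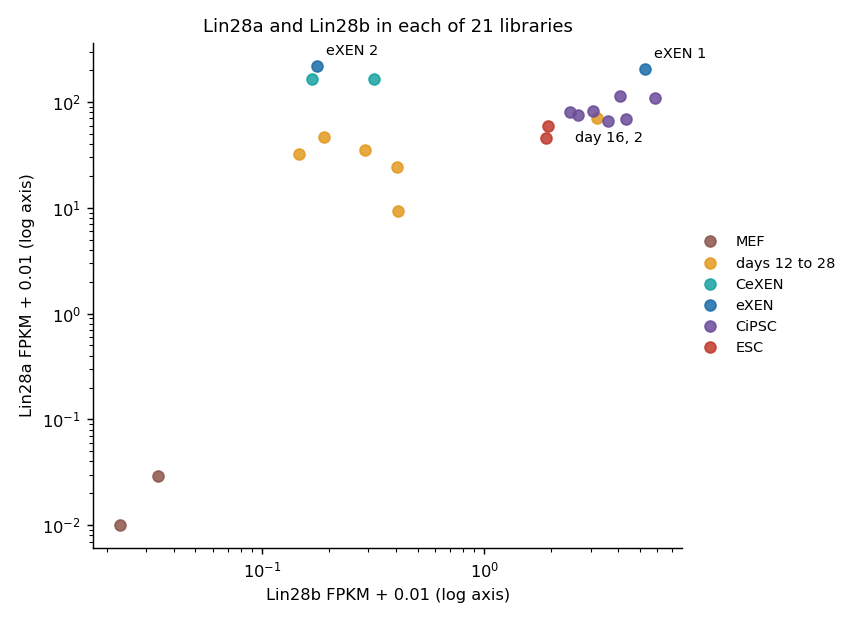
Lin28a FPKM (vertical) against Lin28b FPKM (horizontal) in each library, both with 0.01 added on log axes, coloured by group. The CiPSC and ESC libraries, day 16 replicate 2 and eXEN replicate 1 lie above 1 FPKM of Lin28b, and all other libraries lie below 0.4 FPKM whatever their Lin28a level.

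Genes known as let-7 targets were followed as a list of 20, all of them tested. At day 16 against CeXEN 1 was called higher and 4 lower, where 9.11% of all genes were called higher and 2.18% lower. At day 16 against eXEN it was likewise 1 and 4, where 14% of all genes were called higher and 3.17% lower. In CiPSC against day 16, 6 were called higher and 3 lower, where 13% of all genes were called higher and 17% lower. In eXEN against ESC 4 were called higher and 4 lower, where 28.1% of all genes were called, and in CeXEN against ESC 4 and 2, where 30.3% were, a share like that of the list. In CeXEN against eXEN 1 was called higher and 0 lower, where 6.47% of all genes were called. No gene of the list was called in CiPSC against ESC or over day 12 to day 28. The list's median log2 difference was −0.16 at day 16 against CeXEN, where the median of all genes was 0.13, and −0.25 against eXEN, where it was 0.23. In CiPSC against day 16 it was 0.32, where the median of all genes was −0.02. In eXEN against ESC it was −0.09, where the median of all genes was −0.26. In CeXEN against ESC the list lay on the other side of all genes, at −0.26 where their median was −0.15.

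Trim71, an RNA-binding ubiquitin ligase of early embryos, was lower at day 16 than in both XEN groups and higher in CiPSC than at day 16. It averaged 3.68 ± 0.916 FPKM at day 16, with 24.6 ± 0.303 FPKM in CeXEN, 27.2 ± 1.26 FPKM in eXEN, 57.9 ± 19.3 FPKM in CiPSC and 57.8 ± 11.6 FPKM in ESC. Its log2 differences were −2.46 ± 0.46 at day 16 against CeXEN (adjusted p = 0.00256), −2.60 against eXEN (adjusted p = 0.00101) and 3.57 ± 0.37 in CiPSC against day 16 (adjusted p = 3.2e-06). Mycn, a Myc-family transcription factor, and Igf2bp1, an mRNA-binding protein, moved in the same directions in these comparisons. Igf2bp1 had a log2 difference of −1.37 at day 16 against CeXEN (adjusted p = 0.0293) and of 2.64 in CiPSC against day 16 (adjusted p = 9.83e-06). Mycn had a log2 difference of −1.52 at day 16 against CeXEN (adjusted p = 0.0357) and of 1.51 in CiPSC against day 16 (adjusted p = 0.00309).

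Hmga2, an architectural chromatin protein, ran the other way. It had 84.6 ± 1.79 FPKM at day 16, 73.2 ± 4.48 FPKM in CeXEN and 51.0 ± 26.0 FPKM in eXEN, against 4.20 ± 1.28 FPKM in CiPSC and 12.0 ± 9.60 FPKM in ESC. Its log2 difference was −4.08 ± 0.58 in CiPSC against day 16 (adjusted p = 5.69e-05), 2.75 in CeXEN against ESC (adjusted p = 0.00793) and 2.14 in eXEN against ESC (adjusted p = 0.0317). MEF had 32.4 and 255 FPKM of Hmga2. Ccnd2, a D-type cyclin of the cell cycle, was higher than in ESC by 5.56 in eXEN and 5.41 in CeXEN on the log2 scale, and in CiPSC against day 16 its log2 difference was −3.95 (limma adjusted p = 9.72e-06, 1.06e-05 and 1.52e-05 in that order). Ccnd1, another D-type cyclin, was the list's single gene called higher at day 16 than in CeXEN, by 2.26 on the log2 scale (adjusted p = 0.0353). It averaged 73.6 ± 40.3 FPKM at day 16, 17.6 ± 16.8 FPKM in CeXEN and 0.442 ± 0.256 FPKM in eXEN.

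The genes whose level over the 21 libraries was most like that of each member are given as a description. Pearson r of log2(FPKM + 1) was computed over libraries that share groups, against 11099 genes. Sall4 was nearest to Taf7 (r = 0.960), Slc2a3 (0.955) and Hic2 (0.948). Lin28a was nearest to Slc2a3 (0.967), Bend4 (0.955) and Mycn (0.934), so that Slc2a3, a glucose transporter, was on both lists. Sall1 was nearest to Ralgapa2 (0.935), Mtss1 (0.914) and Bex4 (0.913). Lin28b was nearest to Adsl (0.921), Aqr (0.920) and Snrpa (0.917), and L1td1 to Oard1 (0.957), Wdr33 (0.950) and Smu1 (0.946). Among the members, Sall4 and Lin28a were most alike (r = 0.919). Lin28a and Lin28b were at 0.487, and Lin28b with the other members ran from 0.485 to 0.628.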

How the data were processed

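The authors deposited 1 Cufflinks gene table per library with FPKM (fragments scaled by transcript length and library size) and its bounds. Per the submitters' processing notes, TopHat and Cufflinks were used with mm10, and versions are not given in the sources used here. Each table holds 43496 loci, 40 gene IDs have several loci whose FPKM was summed, and 2 IDs are not in every file. Library depth is not given; relative depth and the fragments behind a value were read from the FPKM bounds. Summed FPKM ran from 543198 to 864945. From these values log2(FPKM + 1) was computed. Genes with at least 1 FPKM in at least 2 libraries (16650) were tested with limma 3.58.1 in R 4.3.3, with a mean-variance trend, 1 fit of all 21 libraries (11 residual degrees of freedom) and Benjamini-Hochberg adjustment. A linear slope was fitted to the 6 libraries of days 12 to 28. On simulated data with 200 changed genes (log2 size 2), 66.5% to 87.5% were recovered in group comparisons and 37% in the slope. Most group comparisons of the real data had far more called genes, so recovery there may differ. The simulated noise, also for the slope, came from the fit of all 21 libraries. The members and lists were chosen with earlier results of these data known. Named genes were the members, Pou5f1, Nanog, Sox2, Sall2 and Sall3, the 3 nearest genes by Pearson r for each member (mean of at least 5 FPKM in a group), and, for each list, up to 4 called genes with the largest change in each comparison described. Replicate numbers did not pair libraries.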

Additional observations from a re-analysis of the deposited data

How the results depend on the processing

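Across the alternatives (pseudocount 0.1, filter of 5 FPKM or none, no intensity trend with a robust prior, quantile and median-of-ratios scaling, only the compared groups, replicate block, each library left out), no member's called difference changed sign. The cause of the changes below was not tested. With only the compared groups in the fit, called members numbered 0 in CeXEN against eXEN, 0 in day 16 against CeXEN and 0 in day 16 against eXEN, and called genes 0, 0 and 533; in CiPSC against ESC 26 genes were called. That fit has few residual degrees of freedom. Same-numbered libraries did not deviate together (correlations −0.116 to 0.051), so numbers were not treated as pairs. With the replicate block, CeXEN against eXEN gave 0 called members and 200 genes, day 16 against CeXEN 1 and 627, and day 16 against eXEN 1482 genes; with eXEN numbers crossed, chosen after seeing the data, 1745 genes. In CiPSC against ESC 5 genes were called with pseudocount 0.1 and 5 with the 5 FPKM filter. With all 21 libraries in the slope fit 1336 genes were called. Groups left with 1 library borrow the spread of the remaining groups. Leaving out libraries gave 9 to 51 genes in CiPSC against ESC (51 without ESC replicate 1), 1 to 2 members and 550 to 1847 genes in CeXEN against eXEN (550 without CeXEN replicate 2, 567 without eXEN replicate 2, 1847 without CeXEN replicate 1), 1479 to 1851 genes in day 16 against CeXEN, 2 to 3 members and 1928 to 3135 genes in day 16 against eXEN, 1 to 2 members in CeXEN against ESC and 2 to 4 in CiPSC against day 16 (4 without day 16 replicate 2). Quantile scaling moved the share of calls that were higher to 52.4% in eXEN against ESC (main 34.7%), 49.8% in CeXEN against eXEN (main 62%), 57.6% in day 16 against CeXEN (main 80.7%) and 53.2% in day 16 against eXEN (main 81.5%). With median-of-ratios scaling these shares were 45.4%, 57.5%, 69.1% and 69%. Values of Lin28b under 0.4 FPKM rest on few fragments, and groups of 1 or 2 libraries limit every p-value.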

Other observations

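The other Sall genes were low beside Sall4 in the libraries after MEF. Sall2, a spalt-family factor, had 1.87 and 5.73 FPKM at day 16, with 4.06 and 9.01 FPKM in MEF, and 0.837 and 1.53 FPKM in ESC. Sall3, the remaining paralog, was near 0 in MEF like Sall4, at 0.0281 and 0.0202 FPKM, and had 1.51 and 1.94 FPKM in CeXEN and 1.22 to 3.78 FPKM in CiPSC, against 0.370 and 0.870 FPKM in ESC. In eXEN it had 1.12 FPKM in replicate 1 and 0.0346 FPKM in replicate 2, where the value rests on about 4 fragments with bounds that reach 0, so the size of this gap is imprecise. At day 16 Sall3 had 0.371 FPKM in replicate 1 and 1.27 FPKM in replicate 2, so that eXEN replicate 1 and day 16 replicate 2 were the higher of their groups for Sall3 and Lin28b alike. This was noticed after the values were seen and was not tested.

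Subunits of NuRD, the complex that Sall4 and Sall1 bind, were called in CiPSC against day 16 for 7 of 14 genes, 6 higher and 1 lower, where 29.9% of all genes were called (13% higher and 17% lower). Their median log2 difference was 0.55, where the median of all genes was −0.02. Hdac1, a histone deacetylase, averaged 248 ± 26.8 FPKM in CiPSC and 85.5 ± 23.7 FPKM at day 16 (log2 difference 1.55 ± 0.20, limma adjusted p = 2.66e-05). Mta3, a metastasis-associated subunit, was higher by 1.54 (adjusted p = 3.87e-06) and Chd4, the ATPase of the complex, by 1.36 (adjusted p = 0.000165). Mbd2, a methyl-DNA-binding subunit, was the 1 that was lower, with a log2 difference of −1.46 (adjusted p = 8.11e-05). In eXEN against ESC 2 subunits were called higher and 2 lower, and in CeXEN against ESC 1 and 2, where 28.1% and 30.3% of all genes were called, and in CiPSC against ESC none of the 14 was called.

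Of 13 tested genes of Lin28 action and let-7 maturation, 1 was called higher and 2 lower in eXEN against ESC, and 1 higher and 3 lower in CeXEN against ESC, where 28.1% and 30.3% of all genes were called, so these counts are near the background. Dgcr8, which partners Drosha in cutting primary microRNAs, averaged 4.78 ± 0.230 FPKM in eXEN and 22.0 ± 2.43 FPKM in ESC (SD, n = 2 each), a log2 difference of −1.99 ± 0.33 (limma adjusted p = 0.000304). It was higher in CeXEN than in eXEN by 1.95 ± 0.33 (adjusted p = 0.00198), and in CeXEN against ESC it differed by −0.04 ± 0.33 (adjusted p = 0.949). Dicer1, the RNase that releases mature microRNAs, averaged 3.38 ± 0.528 FPKM in CeXEN and 13.3 ± 0.902 FPKM in ESC, a log2 difference of −1.71 ± 0.20 (adjusted p = 1.91e-05). In eXEN against ESC it differed by 0.22 ± 0.20 (adjusted p = 0.419).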
